A study of Saccharomyces cerevisiae with 10 samples.

Results

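The genes for the proteins of the cytosolic ribosome of budding yeast were followed across 5 mutation-accumulation lines. Members were chosen by symbol alone: RPL or RPS followed by a number, with an optional A or B, together with RPP0, RPP1A, RPP1B, RPP2A and RPP2B, the acidic proteins of the ribosomal stalk. The array named 135 such genes among its 5711 named genes, and 126 of them had values and were tested, 74 for the large subunit and 52 for the small subunit. All 126 had values on all 10 arrays. The other 9 (RPL16A, RPL25, RPL34B, RPL40A, RPL40B, RPL43A, RPS22B, RPS27A and RPS7B) had no value on any array.

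The lines of Saccharomyces cerevisiae, labelled MA-A8, MA-A4, MA-A3, MA-A1 and MA-A0, are of a kind propagated through small bottlenecks, which lets mutations build up largely unselected. The labels give no ancestor, genotype, growth condition or treatment, and the direction of a change from an ancestor cannot be read from these data. Each array compared total RNA of a Cy5 line with that of a Cy3 line. Every one of the 10 possible pairs had 1 such spotted array, which put every line on 4 arrays, 2 times under each dye. An array is named here by its Cy5 line and then its Cy3 line, as in MA-A1/MA-A0. No label says if the 4 arrays of a line used separate cultures, so standard errors and p-values measure the spread between hybridisations. Values are log2 ratios, Cy5 line over Cy3 line, with each array centred on its median, and this direction is itself a reading of the deposited table: with the opposite one every sign of a line difference would turn. A line value is that line minus the mean of the other 4 lines, from a limma fit with a dye effect to 5415 genes, and a gene passed at an adjusted p of 0.05.

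Ribosomal proteins assemble with ribosomal RNA into a large subunit, which forms peptide bonds, and a small subunit, which reads the messenger RNA. In this yeast most of them are encoded by an A and a B copy, the remains of a genome duplication, and their transcription is driven as a group through Rap1, Fhl1, Ifh1 and Sfp1 under control of nutrient signalling through TOR and protein kinase A. The group is known for rising in fast growth and falling in stress, opposite to the general stress genes.

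The MA-A0/MA-A8 array stood apart from the others for these genes. The distance from the lower to the upper quartile of the members was 0.61 on the log2 scale, against 0.25 to 0.43 on the other 9 arrays. On this array the values of the 124 members with a single row also followed the place of that row in the deposited table. With the table cut into 16 blocks of 484 consecutive rows, and every 4 blocks numbered in turn from 1 to 4, the member medians of the 4 classes of blocks with the same number were 0.44, 0.60, 0.83 and 1.41, and those of the other genes were -0.20, -0.13, 0.09 and 0.36. The spread of member medians over these classes was 0.97 there and 0.18 to 0.38 on the other arrays. Within all 4 classes of this array the member median lay above that of the other genes, by 0.64 to 1.05. With the sign of this array turned, the median residual SD of the fit was 0.36 in place of 0.29 for members and 0.19 in place of 0.20 for all genes, and whether its label is at fault is not known. Results are therefore also given without this array, or with it turned, where that moves them.

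Ribosomal protein transcripts moved together from array to array. The median of the 126 members was 0.04 on MA-A0/MA-A4 and 0.71 on MA-A4/MA-A3. It was 0.46 on MA-A1/MA-A0, 0.40 on MA-A1/MA-A4, 0.26 on MA-A4/MA-A8, 0.27 on MA-A8/MA-A3, 0.76 on MA-A0/MA-A8, 0.16 on MA-A8/MA-A1, 0.46 on MA-A3/MA-A0 and -0.04 on MA-A3/MA-A1. Members thus lay mostly on the Cy5 side, whichever line carried that dye, and 1025 of their 1260 values were above 0. Over the 10 arrays a member correlated with the median of the other members at a median Pearson r of 0.78, as a description of points that share their arrays and dyes. This r was above 0.5 for 103 of 126 members.

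**Figure D1:**
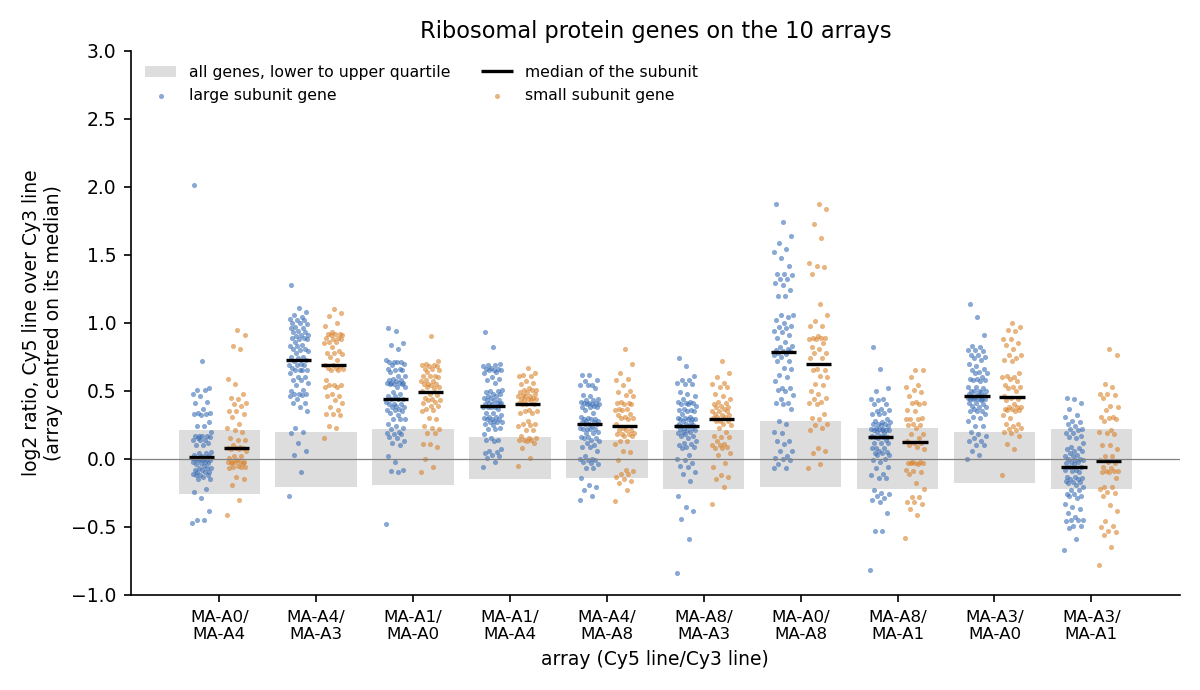
Log2 ratio (Cy5 line over Cy3 line) for each of the 74 large subunit and 52 small subunit genes (points) on the 10 arrays, with subunit medians (black bars) and the lower to upper quartile of all genes (grey). Both subunits sit at nearly the same height on every array, and the widest scatter is on MA-A0/MA-A8.

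The genes most alike to the group were RPL35A, a protein beside the exit tunnel (r = 0.98 over the 10 arrays), RPL12B of the stalk base (0.97), RPL17B (0.96), RPL19B (0.96) and RPS21A (0.95). RPL22B was the least alike (-0.03), and its A copy RPL22A was also far from the group (0.20). The shared movement is also in the errors: the median residual SD of a member was 0.29, against 0.20 for all genes, and it was 0.19 when values were taken from the member median of the same array.

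The shift of the members to the Cy5 side, rather than their movement from array to array, went with the dye. In the fit the dye effect of a gene is the same on every array, so it cannot move that gene between arrays. The fitted dye effect, the excess of Cy5 over Cy3 whatever the lines, was above 0 for 125 of 126 members, with a median of 0.32 against -0.01 for all genes. It passed above 0 for 70 members, 55.6%, against 4.12% of all genes, and below 0 for 0 members against 0.609% of all genes. The highest was RPS11B at 0.72 and the lowest RPL22B at -0.04. Since every line carried each dye on 2 arrays, the effect cancels in the line values. Its origin was not tested.

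Large and small subunit genes followed each other closely in every line. Member medians were -0.02 in MA-A0, 0.17 in MA-A1, -0.15 in MA-A3, 0.12 in MA-A4 and -0.16 in MA-A8, while the median of all genes lay between -0.02 and 0.01. The large subunit medians of the 5 lines, in the same order, were -0.02, 0.18, -0.16, 0.13 and -0.16. The small subunit medians were -0.02, 0.16, -0.14, 0.12 and -0.16. A fit to the difference of both subunits' medians on each array gave -0.03 to 0.03 in every line, each with an SE of 0.03.

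In single genes the direction was widely shared. In MA-A1 116 of 126 members were above 0, and in MA-A4 98 were. In MA-A8 119 were below 0, in MA-A3 99 and in MA-A0 74. Of all 5415 genes 2698 were above 0 in MA-A1 and 2893 in MA-A4, and 2924 were below 0 in MA-A8, 2868 in MA-A3 and 2773 in MA-A0. The direction in MA-A8 rested on MA-A0/MA-A8: the member median there was 0.00 without that array and 0.24 with it turned, which also moved MA-A0 to -0.39. The highest line was MA-A1 for 60 members and MA-A4 for 43, and the lowest was MA-A3 for 58 and MA-A8 for 49. Over all 5415 genes MA-A1 was highest for 1210 and MA-A4 for 1043, and MA-A3 was lowest for 1419 and MA-A8 for 1142. MA-A3 was thus the most frequent lowest line over all genes as well.

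**Figure D2:**
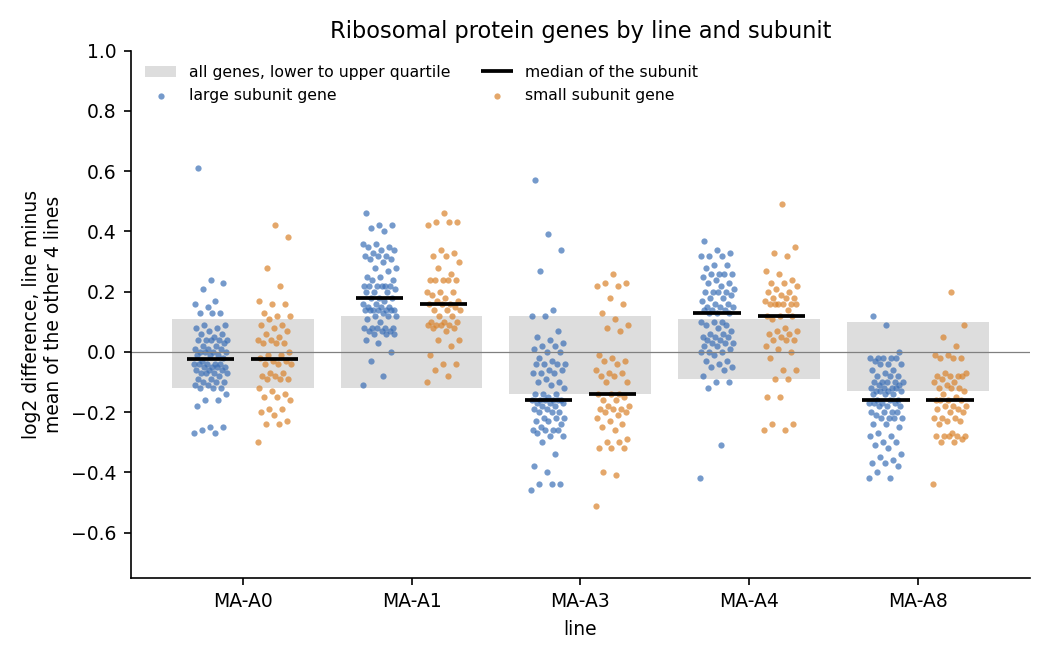
Log2 value of each line minus the mean of the other 4 for every tested gene (points), by subunit, with subunit medians (black bars) and the lower to upper quartile of all genes (grey). Members lie mostly above 0 in MA-A1 and MA-A4 and mostly below 0 in MA-A3 and MA-A8.

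These medians were smaller than the residual scatter of the arrays around a fit. A fit to the 10 array medians of the members gave 0.18 in MA-A1, 0.13 in MA-A4, -0.14 in MA-A3, -0.15 in MA-A8 and -0.03 in MA-A0, each with an SE of 0.13, and left a residual SD of 0.25. Each was thus less than 2 times its SE from 0. The residual was highest on MA-A0/MA-A8 (0.32) and lowest on MA-A4/MA-A8 (-0.31). Without MA-A0/MA-A8 the member median was -0.17 in MA-A0. MA-A1, MA-A3 and MA-A4 stayed at 0.17, -0.15 and 0.12. This was fixed by the balanced design, where an array has no weight in the value of a line it lacks. Without MA-A4/MA-A8 the member median was -0.32 in MA-A8 and 0.29 in MA-A4. Without MA-A4/MA-A3 it was -0.05 in MA-A3 and 0.03 in MA-A4. Without MA-A3/MA-A0 it was -0.26 in MA-A3 and 0.08 in MA-A0. The median of MA-A1 was 0.09 without MA-A3/MA-A1.

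Tested one by one, 8 of 126 members (6.35%) differed among the lines by limma's moderated F test, against 19.3% of all genes. At an unadjusted p under 0.05 the count was 28, or 22.2%, against 34.8%. The fitted range of a gene over the 5 lines, which grows with the error of a gene, had a median of 0.50 in members and 0.44 in all genes. The 8 were RPL22B, RPL31B, RPL37A and RPL6A of the large subunit and RPS25B, RPS28A, RPS29B and RPS9A of the small subunit. The count rested on single arrays. It was 27 (21.4%, against 34.9% of all genes) without MA-A0/MA-A8, all 8 among them, and 15 without MA-A4/MA-A8 (994 of all genes, against 1047 with every array). It was 2 without MA-A8/MA-A3 (703 of all genes), 2 without MA-A3/MA-A0 (599), 1 without MA-A8/MA-A1 (703), and 0 when MA-A3/MA-A1 was left out (595), so the count over all genes fell in these 4 as well. Each of the 8 lost its F test call without some arrays of the 10, RPS28A without 3, RPL37A and RPS29B without 4, RPL22B and RPL6A without 5, RPL31B without 6, and RPS25B and RPS9A without 7.

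**Figure D3:**
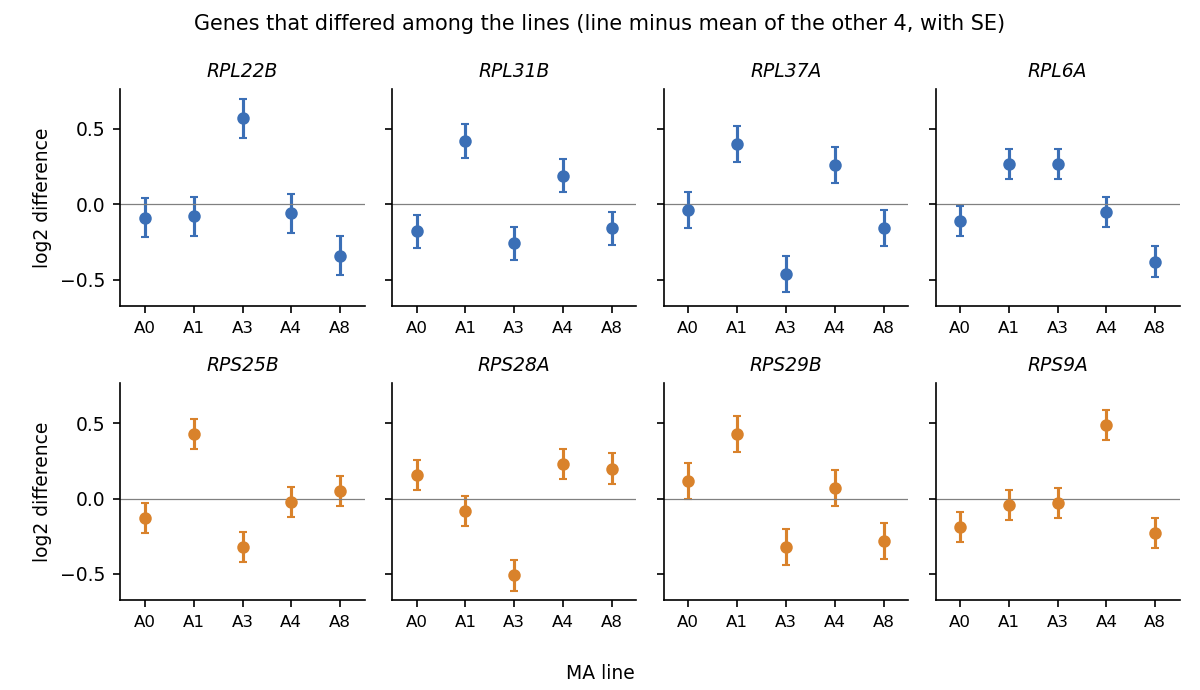
Log2 value of each line minus the mean of the other 4, with its SE (bars), for the 8 genes that differed among the lines. RPS28A and RPL37A are lowest in MA-A3, RPL22B is highest there, RPS9A is highest in MA-A4, and RPL31B, RPS25B and RPS29B are highest in MA-A1.

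MA-A3 was the line in which most members were called. Against the mean of the other lines 5 members fell and 1 rose, 3.97% and 0.794% of members, against 6.93% and 10.5% of all genes. These 6 calls became 18 without MA-A0/MA-A8, 11 without MA-A4/MA-A8, 3 without MA-A4/MA-A3 and 2 without MA-A3/MA-A1. In the same order, the share of all genes passing the F test was 34.9%, 18.4%, 17.1% and 11.0%, beside 19.3% with every array. At an unadjusted p under 0.05 by limma 20 members fell and 4 rose, 15.9% and 3.17%, against 14.1% and 14.8% of all genes. RPS28A, a small subunit protein near the exit of the messenger RNA channel, had ratios of MA-A3 of -1.07 to MA-A4, -0.72 to MA-A8, -0.12 to MA-A0 and -0.14 to MA-A1. All 4 arrays thus put MA-A3 lower, and far more so where MA-A3 carried Cy3. Its line value was -0.51 ± 0.10 (SE; adjusted p = 0.00248 by limma), and it passed without any single array, the highest adjusted p then being 0.0417. The line value itself could move only when an array with MA-A3 was left out. This line call was lost with no dye effect (0.0749), with values as deposited (0.399) and relative to the members' median (0.158), and its F test call (0.0171) without MA-A4/MA-A3 (0.0982), MA-A3/MA-A0 (0.0599) and MA-A3/MA-A1 (0.0637).

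RPL37A, a zinc-binding protein of the large subunit, had ratios of MA-A3 of -0.99 to MA-A4, -0.35 to MA-A8, -0.59 to MA-A1 and 0.10 to MA-A0. MA-A3 was thus lower on 3 of its 4 arrays, with MA-A0 the exception. The line value of RPL37A was -0.46 ± 0.12 (SE; adjusted p = 0.0145 by limma). The call was lost without MA-A4/MA-A3 (adjusted p = 0.0946) and without MA-A3/MA-A1 (0.165). RPP1A, an acidic protein of the stalk that recruits elongation factors, was at -0.38 ± 0.10 (adjusted p = 0.0175 by limma). RPS21B was at -0.40 ± 0.11 (adjusted p = 0.0265) and RPS25B at -0.32 ± 0.10 (adjusted p = 0.0401). Each of RPP1A, RPS21B and RPS25B lost its MA-A3 call without MA-A4/MA-A3 (adjusted p of 0.226, 0.264 and 0.240), without MA-A3/MA-A0 (0.0729, 0.0575 and 0.080) and without MA-A3/MA-A1 (0.106, 0.180 and 0.263). RPS25B also lost it without MA-A1/MA-A0 (0.0567), MA-A1/MA-A4 (0.0584), MA-A8/MA-A3 (0.0871) and MA-A8/MA-A1 (0.0576).

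RPL22B rose in MA-A3, where its A copy was not called. The ratio of MA-A3 for RPL22B was 0.84 to MA-A8, 0.79 to MA-A0, 0.37 to MA-A1 and 0.27 to MA-A4. Every array of the line put it higher. The line value was 0.57 ± 0.13 (SE; adjusted p = 0.00544 by limma), and the call was lost without MA-A3/MA-A0 (0.102). In the F test RPL22B passed at an adjusted p of 0.0364 and was lost without MA-A8/MA-A3 (0.201), MA-A3/MA-A0 (0.128), MA-A3/MA-A1 (0.101), MA-A8/MA-A1 (0.0845) and MA-A4/MA-A8 (0.0504). RPL22A was at -0.16 ± 0.20 in MA-A3. In this yeast the Rpl22 protein is known to bind the intron of RPL22B transcripts and to limit their splicing.

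RPL22A had the widest range of all members, 1.04, without passing the F test (adjusted p = 0.0831 by limma). Its ratio of MA-A0 was 2.01 to MA-A4 and 1.42 to MA-A8, but -0.61 to MA-A1 and -0.37 to MA-A3. MA-A0 was thus high where it carried Cy5 and low where it carried Cy3, which leaves a residual SD of 0.60 for this gene. Taken relative to the median of the tested members of each array, a centring chosen after the data were seen, RPL22A and RPL22B were the 2 members that passed the F test, with adjusted p of 0.00287 and 0.0122. On that scale RPL22B was at 0.70 ± 0.17 in MA-A3 and RPL22A at 0.64 ± 0.17 in MA-A0 and -0.56 ± 0.17 in MA-A4. The SE there was 0.17 alike for RPL22A and for every member that passed the F test in the main fit. In the main fit it was 0.20 for RPL22A and 0.13 for RPL22B. The wide scatter of RPL22A thus hardly counted against it on that scale.

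In MA-A1 2 members rose, 1.59% against 2.62% of all genes, and 0 fell against 1.55%. Both lie on chromosome XII, where all genes had a median of 0.28 in this line, and 0 members elsewhere were called. RPS25B, a small subunit protein that some viral RNAs need to start translation without a cap, had ratios of MA-A1 of 0.64 to MA-A0, 0.51 to MA-A4, 0.53 to MA-A3 and 0.03 to MA-A8. Its line value was 0.43 ± 0.10 (adjusted p = 0.0364 by limma). RPL31B, a protein at the rim of the exit tunnel, had ratios of MA-A1 of 0.29 to MA-A0, 0.43 to MA-A4, 0.53 to MA-A8 and 0.45 to MA-A3, all 4 above 0. Its line value was 0.42 ± 0.11 (adjusted p = 0.0427). Both calls were lost without MA-A1/MA-A0 (adjusted p of 0.142 for RPS25B and 0.0749 for RPL31B), MA-A1/MA-A4 (0.165 and 0.280) or MA-A8/MA-A1 (0.175 and 0.285), and when leaving out MA-A3/MA-A0 (0.061 and 0.0668) and MA-A3/MA-A1 (0.227 and 0.188). That of RPL31B was also lost without MA-A8/MA-A3 (0.0539). RPS29B, a zinc-binding protein of the small subunit head, was at 0.43 ± 0.12 in MA-A1 and passed the F test only (adjusted p = 0.0373). It was lost without MA-A3/MA-A1 (0.236), MA-A8/MA-A1 (0.172), MA-A1/MA-A0 (0.0755) and MA-A8/MA-A3 (0.0593). The ubiquitin fusion gene RPS31 and RPL38 had the highest values of all members in this line, both 0.46, with SE of 0.15 and 0.14, and did not pass.

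In MA-A4 1 member rose, 0.794% against 1.63% of all genes, and 0 fell against 1.88%. It was RPS9A, a small subunit protein close to the messenger RNA entry. Its ratios of MA-A4 were 0.41 to MA-A0, 0.69 to MA-A3, 0.05 to MA-A1 and 0.81 to MA-A8, so all 4 arrays put MA-A4 higher. The line value was 0.49 ± 0.10 (adjusted p = 0.0198 by limma), and it was lost without MA-A0/MA-A4 (0.068), without MA-A4/MA-A3 (0.159) and without MA-A4/MA-A8 (0.108). In the F test (0.0295) the adjusted p of RPS9A reached 0.137. Its copy RPS9B was at 0.27 ± 0.15 in that line. At an unadjusted p under 0.05 by limma 20 members rose in MA-A4 (15.9%) against 7.31% of all genes, and 1 fell against 7.35%.

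In MA-A0 and MA-A8 0 members were called by limma. The background was 0.222% higher and 0.111% lower in MA-A0, and 1.27% higher and 2.01% lower in MA-A8. At an unadjusted p under 0.05 there was 1 higher and 4 lower in MA-A0, against 7.20% and 8.14% of all genes. In MA-A8 there were 0 higher against 8.85%, and 20 lower (15.9%) against 11.0%. In MA-A8 the lowest values were those of RPS3, a protein of the messenger RNA entry (-0.44 ± 0.13), RPL15B (-0.42 ± 0.15) and RPL27B (-0.42 ± 0.16). RPL6A, a surface protein of the large subunit that passed the F test (adjusted p = 0.0363 by limma), was at -0.38 ± 0.10 in MA-A8 and at 0.27 ± 0.10 in both MA-A1 and MA-A3. Without MA-A8/MA-A1 the adjusted p of RPL6A was 0.195 and without MA-A8/MA-A3 it was 0.151. It also missed without MA-A1/MA-A4 (0.0866), MA-A3/MA-A0 (0.0868) and MA-A3/MA-A1 (0.0809).

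Among the 10 pairs of lines, most calls lay between MA-A1 and MA-A3. Called higher in MA-A1 were 7.94% of members against 6.35% of all genes. In both directions together there were 11 members against 15.5% of all genes. Of these 10 were higher in MA-A1, led by RPL38 (0.72 ± 0.18, adjusted p = 0.0165 by limma), RPL37A (0.69 ± 0.15), RPS25B (0.60 ± 0.13) and RPS29B (0.60 ± 0.15), and RPL22B was lower (-0.52 ± 0.16). Between MA-A3 and MA-A4 there were 6 calls against 11.6%. Of these, RPS28A, RPL37A, RPP1A, RPL21B and RPL36B were lower in MA-A3 and RPL13B was higher (0.52 ± 0.15). MA-A3 and MA-A8 had 3 calls against 18.6%, RPL22B (0.73 ± 0.16) and RPL6A (0.52 ± 0.13) higher in MA-A3 and RPS28A lower (-0.57 ± 0.13). MA-A0 and MA-A3 had 2, RPS28A higher in MA-A0 (against 4.36% of all genes) and RPL22B lower (against 7.65%), and MA-A4 and MA-A8 had 1 against 2.12%, RPS9A (0.58 ± 0.13).

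The other 5 pairs had 0 calls by limma. Their background was 1.66% for MA-A0 with MA-A1, 1.75% for MA-A0 with MA-A4, 0.388% for MA-A0 with MA-A8, 2.27% for MA-A1 with MA-A4 and 0.536% for MA-A1 with MA-A8. At an unadjusted p under 0.05 these pairs, in the same order, had 19, 14, 5, 11 and 30 of the 126 members, against 1148, 867, 480, 860 and 947 of the 5415 genes. With both directions together the member share was thus below that of all genes in 4 of the 5. By direction, 15.1% of members were lower in MA-A0 than in MA-A1, against 11.1% of all genes. Lower in MA-A0 than in MA-A4 were 10.3% against 8.40%. MA-A1 over MA-A8 had 23.8% against 8.96%, MA-A0 over MA-A8 3.97% against 5.30% and MA-A1 over MA-A4 7.14% against 8.27%. The opposite directions held at most 2 members, each time a share under that of all genes. The pairs share lines and arrays and are not independent of one another. Over the 10 pairs there were 23 calls. Without MA-A0/MA-A8 there were 78 and without MA-A4/MA-A8 50, while there were 15 without MA-A1/MA-A4. Leaving out MA-A8/MA-A1 left 11, and leaving out MA-A3/MA-A1 left 5.

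A and B copies were more alike over the arrays than other pairs of members, by the median of their correlations. Both copies had values for 51 of the 58 proteins with A and B symbols on the array. The fitted range of A minus B over the lines had a median of 0.37, beside a median residual SD of 0.24. Over the 10 arrays the A copy correlated with its B copy at a median r of 0.75, against 0.56 for the 7824 other pairs of members. It was above 0.8 for 20 of the 51 pairs and below 0.3 for 8. This is a description of points that share arrays, and near-identical copies may not be told apart by their probes. Where both rows lay in the same class of blocks (18 pairs) the median r was 0.82, and where they did not (32 pairs) it was 0.70.

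At the narrow end was RPL4, whose protein lines the exit tunnel, with a range of 0.05 and an r of 0.99. RPL4A was at 1.64 and RPL4B at 1.87 on MA-A0/MA-A8, 0.69 and 0.70 on MA-A4/MA-A3, and -0.29 and -0.33 on MA-A3/MA-A1. RPL41 (range 0.07) and RPL27 (0.11) both had an r of 0.98. RPL2 had a range of 0.06 but an r of only 0.49.

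At the wide end 12 pairs had ranges over 0.5, led by RPL22. RPL22A minus RPL22B was 0.70 in MA-A0, 0.42 in MA-A1, -0.02 in MA-A8, -0.37 in MA-A4 and -0.73 in MA-A3, each with an SE of 0.36. The next were RPL13 (0.76), RPS28 (0.74), RPL31 (0.70), RPL36 (0.64), RPL21 (0.62), RPL20 (0.60) and RPP2 (0.57). RPS28A minus RPS28B was -0.43 ± 0.19 in MA-A3 and moved to -0.21 without MA-A3/MA-A1. RPL31A minus RPL31B was 0.42 ± 0.25 in MA-A0 and moved to 0.11 without MA-A0/MA-A8. Over these 8 pairs the SE of a line value ran from 0.10 (RPP2) to 0.36 (RPL22).

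The RPS25 pair had the smallest SE of the 12 pairs with ranges over 0.5, at 0.04 with a range of 0.56. RPS19 had the same SE with a range of 0.27. RPS25A minus RPS25B was 0.22 in MA-A0, 0.14 in MA-A4, 0.03 in MA-A3, -0.06 in MA-A8 and -0.33 in MA-A1. On the arrays with MA-A1, the difference of the copies was -0.11 and -0.16 where MA-A1 carried Cy5, and 0.56 and 0.50 where it carried Cy3. All 4 put RPS25B higher relative to RPS25A in MA-A1 once the pair's dye effect of 0.27 is taken off.

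**Figure D4:**
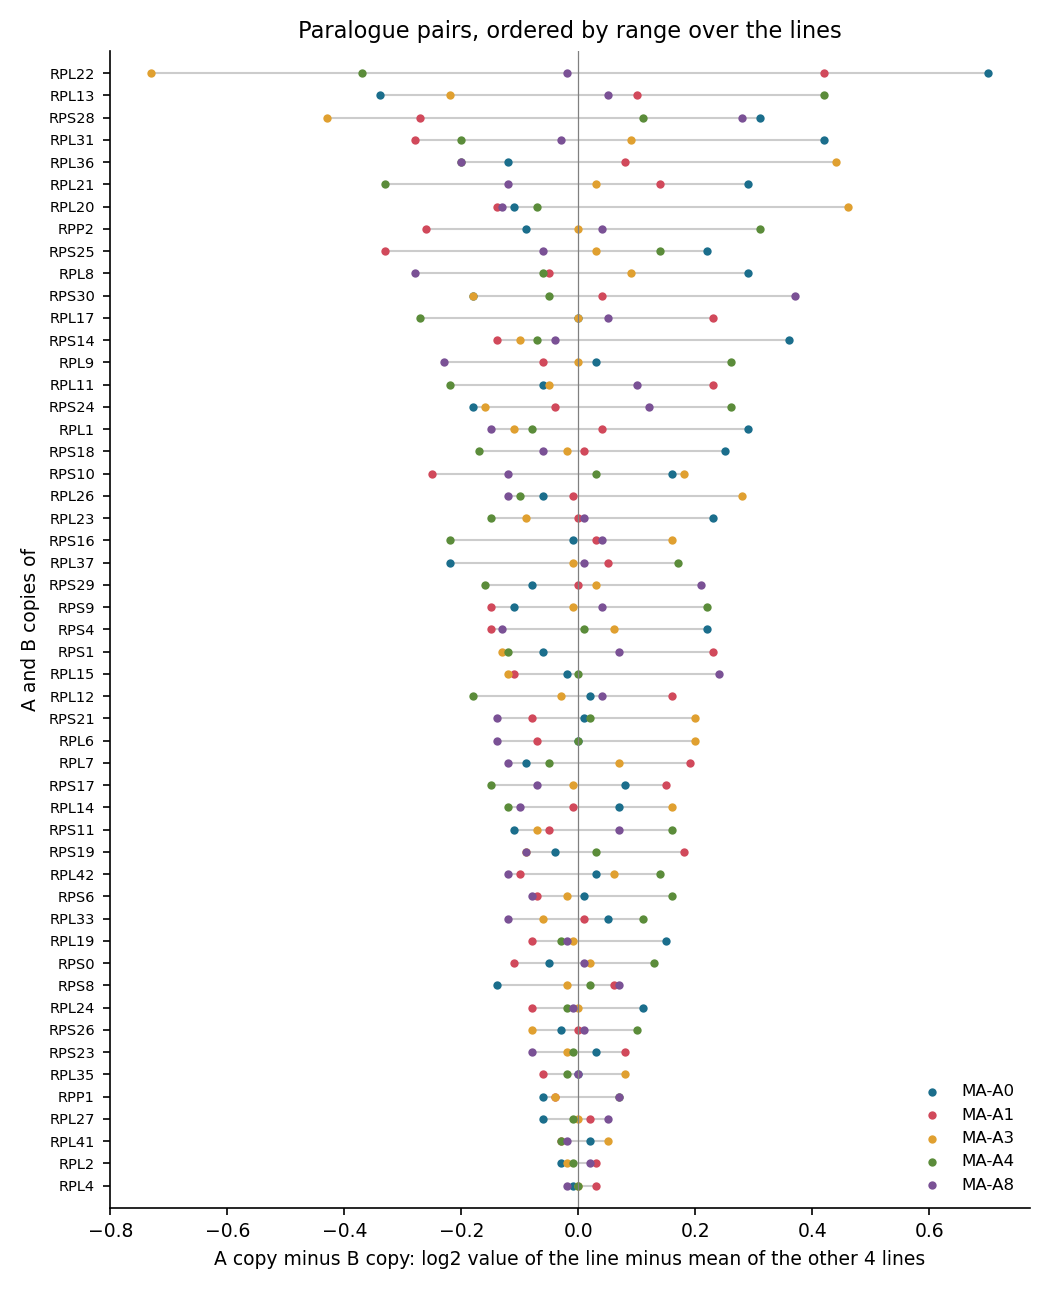
A copy minus B copy in each of the 5 lines (coloured points, log2, line minus mean of the other 4) for the 51 pairs, ordered by the range over the lines (grey bars). RPL22 spans 1.43, from MA-A3 to MA-A0, and RPL4, at the bottom, spans 0.05.

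The chromosome that carries a gene went with its value in some lines. In MA-A3 the 10 members on chromosome XIII had a median of 0.22, against -0.16 for the other 116, and all 10 lay above the median of the others. All 427 tested genes of that chromosome had a median of 0.54 in MA-A3, and all 10 members lay below it. In MA-A1 the 17 members on chromosome XII had a median of 0.34 against 0.15 for the rest, and all tested genes of that chromosome (445) had 0.28. All 17 were above the median of the other members, and 5 were below that of the chromosome. The 3 members on chromosome XI had a median of 0.36 in MA-A1, against 0.16 for the other members and 0.14 for all genes of that chromosome. On chromosome IX the 147 genes had a median of -0.24 in MA-A4, while its 2 members had 0.05 and the other members 0.13. The distance of these 2 from the other members was -0.07, with SE of 0.12 (RPL2B) and 0.15 (RPS24B). They are too few and too imprecise to say if members followed that chromosome. The difference stayed between 0.31 and 0.43 for chromosome XIII, and between 0.18 and 0.25 for chromosome XII, without each array in turn. By the design only the arrays that carry the line concerned could move it.

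**Figure D5:**
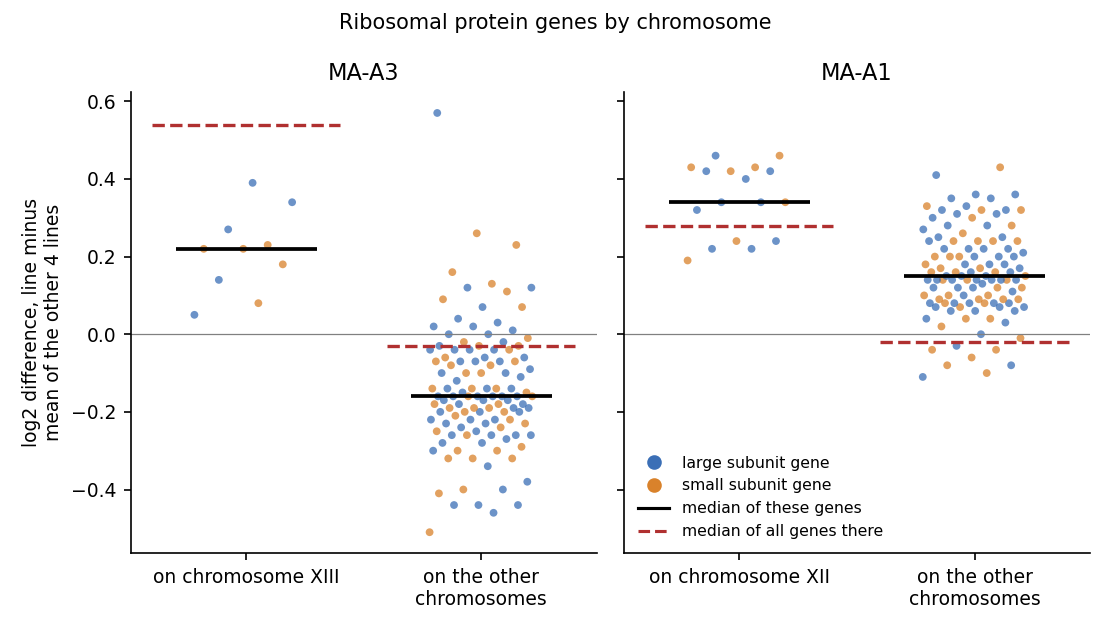
Log2 value of MA-A3 (left) and MA-A1 (right) minus the mean of the other 4 lines for the genes on chromosome XIII or XII and elsewhere (points, coloured by subunit), with their median (black) and the median of all genes in the same place (dashed red). On chromosome XIII the members sit at 0.22 and all genes at 0.54. On chromosome XII the members sit at 0.34 and all genes at 0.28.

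Pairs with 1 copy on such a chromosome set both copies side by side. For the 10 pairs split by chromosome XIII, the copy on it was higher than the other in MA-A3 in 8, with a median difference of 0.15. It was widest for RPL20A over RPL20B (0.46 ± 0.24) and RPL36A over RPL36B (0.44 ± 0.13). RPL36A was at 0.14 ± 0.12 in MA-A3 and RPL36B at -0.30 ± 0.11. RPS10B was the lowest, -0.18 ± 0.10 against RPS10A. For the 13 pairs split by chromosome XII, the copy on it was higher in MA-A1 in 10, with a median of 0.07 and a range from -0.11 (RPL15A) to 0.42 (RPL22A). Those with the smallest errors were RPS25B (0.33 ± 0.04 over RPS25A) and RPS1A (0.23 ± 0.06 over RPS1B).

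In MA-A3 and MA-A1, groups of members by place in the ribosome followed the whole. The stalk and its base (7 genes) had medians of -0.16 in MA-A3 and 0.22 in MA-A1, and 0 of 7 passed the F test by limma (2 at an unadjusted p under 0.05), beside 19.3% of all genes (34.8% unadjusted). The exit tunnel (13 genes) was at -0.18 and 0.22, with RPL31B passing. The messenger RNA entry and decoding centre (7 genes) was at -0.24 and 0.28, with 0 passing (2 unadjusted). RPL5, RPL11A and RPL11B, which carry 5S ribosomal RNA into the large subunit, were between -0.27 and -0.06 in MA-A3 and between 0.00 and 0.31 in MA-A1, with 0 passing (0 unadjusted). All these groups thus had medians on the same side of 0 as the members as a whole, -0.15 in MA-A3 and 0.17 in MA-A1. The groups are themselves part of the members. In MA-A0 the entry and decoding centre was at 0.06 and the 5S group at 0.01, where the members were at -0.02.

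Other genes that make or serve ribosomes varied from list to list, beside the 19.3% of all genes that passed. Of 9 regulators of ribosomal protein transcription 1 passed, SFP1, the activator on chromosome XII (adjusted p = 0.0107 by limma's F test). SFP1 was at 0.38 ± 0.09 in MA-A1 and at -0.37 ± 0.09 in MA-A8 (adjusted p of 0.0404 and 0.0414 by limma). Of 21 ribosome biogenesis factors 1 passed, RRP5 on chromosome XIII, at 0.66 ± 0.11 in MA-A3. Of 7 dedicated ribosomal protein chaperones 0 passed limma's F test (2 unadjusted), and of 6 RNA polymerase I subunits 0 passed (0 unadjusted). Translation factors had 4 of 29, CDC33, NIP1, CAM1 and TIF34, with a median of -0.16 in MA-A3. NIP1 and TIF34, both of initiation factor eIF3 and both on chromosome XIII, were at 0.54 ± 0.11 and 0.43 ± 0.09 there, and CDC33, the cap-binding protein, at -0.33 ± 0.09. CDC33 was also called in MA-A0, at 0.48 ± 0.09 (adjusted p = 0.0427 by limma). Ribosome-associated factors had 4 of 9, SSZ1, EGD1, MAP1 and STM1, with a median of -0.33 in MA-A3, where the chaperone SSZ1 was at -0.54 ± 0.09. MAP1, on chromosome XII, was not called in MA-A3 and was at 0.58 ± 0.13 in MA-A1 (adjusted p = 0.0259 by limma).

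The stress genes spread far wider than the ribosomal proteins. The list of 17 general stress genes was chosen with earlier results of these data known, so its count and spread are a description only. Of the 17, 14 passed the F test by limma, beside 19.3% of all genes. The medians of the 17 were 1.06 in MA-A3, -0.05 in MA-A0, -0.20 in MA-A4, -0.43 in MA-A1 and -0.69 in MA-A8. HSP12, a small heat shock protein, was at 2.60 in MA-A3 and -2.24 in MA-A8. Ribosomal protein medians were opposite in sign to the stress medians in MA-A1, MA-A3 and MA-A4, where those of MA-A3 and MA-A4 shrank to -0.05 and 0.03 without MA-A4/MA-A3. In MA-A8 and MA-A0 both medians were below 0. The member median of MA-A8 ran from -0.32 to 0.00 without each array in turn, and that of MA-A0 was -0.02. The part of stress gene levels in the ribosomal protein values was not tested.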

How the data were processed

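Per the labels, total RNA of 5 lines was labelled with Cy5 and Cy3 and each pair of lines was hybridised once. The authors deposited 1 log ratio for each row of probes on each array, from -5.54 to 4.17, read here as log2 of Cy5 over Cy3. Base and direction are unstated. The sources used here do not give scanner, background correction, filters or normalization. Of 7744 rows 6116 had a gene name, matched to the R64 annotation for symbols and chromosomes. Values were present on 6282 to 6824 rows per array, and the number of arrays limits the precision. Array medians as deposited ran from -0.84 to 0.41, so each array was centred on its median over named genes, and rows of 1 gene were averaged (RPL32 had 33 rows).

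The 5415 genes measured on 8 or more arrays were fitted with limma 3.58.1 in R 4.3.3, with line terms, a dye effect, moderated variances and 5 residual degrees of freedom. The tests were an F test over the lines, a line minus the mean of its 4 counterparts, and the 10 pairs, with Benjamini-Hochberg adjustment over all genes. A minus B values and array medians were fitted by ordinary least squares, with no p. On simulated data of 5415 genes with 200 changed, the F test recovered 32.0% of changes of 0.5 on the log2 scale, with 9.86% of its calls false, and 100% of changes of 1.0, with 6.98% false. The simulated noise was independent between genes, whereas the members share errors and had more residual scatter than all genes. These rates therefore need not hold for the members.

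The members and gene lists were chosen with earlier results of these data known. Named are members passing the F test, the 12 widest ranges, the 3 highest and 3 lowest members per line, the 8 widest and 4 narrowest pairs, 5 members most alike to the group, and up to 4 genes per list with the smallest F test p. RPS21B, RPS9B, RPS25A, RPS10A, RPS10B, RPS1B and RPS11B were added after their values were seen, as called genes, copies or extremes. Alternatives were other centrings, no dye effect, complete genes only, a turned sign of the MA-A0/MA-A8 array, other variance moderation and each array left out.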

Additional observations from a re-analysis of the deposited data

Results flagged for a closer look

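On the MA-A0/MA-A8 array 2 measures of the ribosomal protein genes lay far from the other 9 arrays. The SD among the 33 spots of RPL32, a large subunit gene, was 0.44 there and at most 0.26 on the others, and the gap was 0.562 of the whole range against a critical value of 0.466 for 10 arrays. The distance between the quartiles of the members was 0.61 on the same array, with a gap of 0.5 of the range. In all, 4 measures were checked this way, and chance alone flags about 5% of them.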

How the results depend on the processing

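The 8 members that differed among the lines became 15 with MA-A0/MA-A8 turned (all genes 23.5%), 2 when centred on the members' own median (16.7%), and 0 each with values as deposited (2.68%), with no dye effect (10.7%) and with no variance moderation, where 3 genes of all 5415 passed. With each array left out they ranged from 0 to 27, and the share of all genes passing from 11.0% to 34.9%. The 6 calls in MA-A3 became 0 with values as deposited, 1 with no dye effect, 1 with no moderation and 3 on the members' median (2 to 18 leaving arrays out). The 9 calls over the 5 lines became 0, 1, 1 and 3 under the same settings and 26 with the array turned (3 to 38). The 23 calls over the pairs became 0, 4, 1 and 6 (5 to 78). Of the 6 calls in MA-A3, only that of RPL22B was kept on the members' median (adjusted p = 0.000578 by limma). The 5 members called lower in MA-A3 were all lost on that scale. The SE of RPS28A, RPL37A and RPS25B was 0.17 there, against 0.10, 0.12 and 0.10 in the main fit. Without centring, all genes shifted by 0.28 in MA-A0 and -0.14 in MA-A1. The member medians were then 0.26 in MA-A0 and 0.03 in MA-A1, and relative to all genes -0.01 and 0.17. With MA-A0/MA-A8 turned the medians were -0.39 in MA-A0 and 0.24 in MA-A8. Leaving arrays out, the medians ran from -0.17 to 0.08 in MA-A0, 0.09 to 0.19 in MA-A1, -0.26 to -0.05 in MA-A3, 0.03 to 0.29 in MA-A4 and -0.32 to 0.00 in MA-A8, and the median range of A minus B from 0.35 to 0.42. The cause of these changes was not tested. Centring within blocks of rows, chosen after the data were seen, left 10 members passing, 7 of the 8 among them, against 25.4% of all genes, and RPS29B was lost (adjusted p = 0.165 by limma). No paired analysis was possible because the labels carry no replicate numbers, and each value is already a ratio of 2 lines within 1 array.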
